A study of Mus musculus with 8 samples.

Results

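The genes described here are 10 targets of the transcription factor p53, a list proposed with results of these arrays known. Ccng1, Btg2, Cdkn1a and Plk2 act on the cell cycle. Pmaip1, Perp, Trp53inp1, Ei24 and Bax act in cell death, and Mdm2 feeds back on p53 itself. Of these 10 genes, 9 had at least 1 probe set annotated to their symbol alone, giving 15 probe sets out of the 22626 on the array that are not array controls; Bax was not analysed here. Where a gene had several, its brightest probe set on average stood for it, as for all 12393 genes tested.

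p53 is kept low by the ubiquitin ligase Mdm2 and accumulates when DNA is damaged or ribosome assembly, nucleotide supply or metabolism is disturbed. It then binds a motif of paired decamers near its target genes and raises their transcription, including that of Mdm2, which closes a feedback loop. In mouse embryonic stem cells p53 is known for promoting differentiation, among other ways by lowering Nanog, and these cells are known for a weak arrest in G1 after damage. Several of the 10 genes also answer to other factors, so their levels do not measure p53 activity alone.

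The cells were mouse J1 embryonic stem cells, an established line, grown on gelatin with serum and leukemia inhibitory factor (LIF). RNA was measured on 8 arrays in 4 groups of 2: cells with a control hairpin (shControl), cells with the hairpin shRNA1 or the hairpin shRNA2 against Fbxl19, and cells on day 4 of differentiation. Fbxl19 encodes a CpG-binding F-box protein, and the title of the series links it to Rnf20 and the ubiquitination of histone H2B. The labels do not say how the hairpins were delivered or how differentiation was carried out. They also do not say whether day 4 cells carried a hairpin or whether replicates were separate cultures. The p-values set a difference between groups against the spread between arrays within groups, estimated over all 4 groups. Part of that spread may be technical. Titles and source names give Fbxl19 for all 4 hairpin samples, while the descriptions of 3 of them name Fbxl20, Fbxl21 or Fbxl22; the titles were followed. The level of Fbxl19 was not analysed here, so the knockdown itself was not checked.

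The cells carried the markers of their label. Mean levels of 20 stem cell markers lay between 10.81 and 10.95 on the log2 scale on the 6 undifferentiated arrays and at 8.77 and 9.70 on day 4. Of 13 fibroblast markers, 8 had means below the lower quartile of every array in shControl and with each hairpin, and 6 on day 4. The mean of 10 measured trophoblast markers was 4.45 to 4.54 in shControl, 4.68 to 4.91 with the hairpins and 5.12 to 5.20 on day 4. Of these 10 markers, 8 lay above 0 with both hairpins averaged. In the hairpin comparisons 0 were called, against 0.0726% of all genes with both hairpins averaged. In shControl 5 of the markers were below the lower quartile of the arrays, against 3 with each hairpin. The part of this shift in the results below was not tested. Replicate 2 of shControl stood apart in its distribution, with a median of 5.81, above that of every other array. As a sign of RNA quality, actin control signal at the 3' end exceeded that at the 5' end by 0.54 and 0.60 in shControl, 0.70 to 0.76 with the hairpins and 0.65 and 0.73 on day 4. The Gapdh measure was 0.175 and 0.256 in shControl, 0.177 to 0.27 with the hairpins and 0.265 and 0.204 on day 4. The actin measure, but not that of Gapdh, separated shControl from all other arrays, as 8 of the 9 genes below did. The part of the actin measure in their differences was not tested.

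A few start-site windows are shown because their genes carry the main results: Ccng1 and Btg2 were called with both hairpins averaged, and Cdkn1a is the classical p53 target. Each runs 5′ to 3′ from 250 bases before to 50 after a RefSeq start (GRCm38.p6), and capitals mark matches to the p53 consensus decamer or to a pair of such decamers. The Ccng1 window is chr11:40755237-40755536 on the minus strand, the Cdkn1a window chr17:29090729-29091028 on the plus strand, at the more upstream of the starts listed, and the Btg2 window chr1:134079106-134079405 on the minus strand.
Ccng1: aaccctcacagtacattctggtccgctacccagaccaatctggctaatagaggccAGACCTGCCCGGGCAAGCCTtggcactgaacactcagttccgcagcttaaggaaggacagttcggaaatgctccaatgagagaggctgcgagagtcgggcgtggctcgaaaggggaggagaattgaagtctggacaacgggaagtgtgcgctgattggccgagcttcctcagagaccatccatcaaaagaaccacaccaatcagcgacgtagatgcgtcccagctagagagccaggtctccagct
Cdkn1a: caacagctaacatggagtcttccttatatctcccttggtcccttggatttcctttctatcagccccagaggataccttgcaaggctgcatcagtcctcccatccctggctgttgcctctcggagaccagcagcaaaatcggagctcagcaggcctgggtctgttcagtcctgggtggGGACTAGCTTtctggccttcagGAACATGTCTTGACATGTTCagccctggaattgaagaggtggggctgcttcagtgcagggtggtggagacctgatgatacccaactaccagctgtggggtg
Btg2: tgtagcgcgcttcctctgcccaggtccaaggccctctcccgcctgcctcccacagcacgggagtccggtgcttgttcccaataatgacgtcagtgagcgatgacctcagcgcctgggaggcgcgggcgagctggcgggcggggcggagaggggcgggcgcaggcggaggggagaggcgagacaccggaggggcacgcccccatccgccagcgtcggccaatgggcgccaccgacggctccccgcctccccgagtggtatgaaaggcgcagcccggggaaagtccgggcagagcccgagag

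Promoter windows were found for 7 of the 10 genes, with a second start for Cdkn1a. Both strands were searched at once, since the p53 consensus decamer reads the same on either. An exact decamer lay in 5 of these 8 windows, against 8.36% of the 32851 windows of the same length in the table. A pair of decamers at most 3 bases apart, with at most 3 mismatches in 20 bases and the central C and G of each kept, lay in 3 of the 8 windows, against 5.76% of all. In Ccng1 the pair spanned -195 to -176 from the start with 1 mismatch (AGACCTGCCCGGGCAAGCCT). In Cdkn1a it spanned -51 to -32 with 1 mismatch (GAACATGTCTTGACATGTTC), and in Bax -201 to -181 with 2 mismatches and a gap of 1 base. Each pair contains an exact decamer of its own gene, so these counts overlap. Mdm2 had 1 exact decamer (GAACTTGCCT) and Ei24 had 1 (GGGCATGCCC), while the windows of Btg2 and Plk2 and the downstream window of Cdkn1a held no match. A match describes letters only, and these windows are a small part of each gene's surroundings.

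With both hairpins averaged, all 9 measured genes lay above shControl, from 0.31 for Ei24 to 1.18 for Ccng1 and Pmaip1, with a median of 0.87. Over all 12393 genes the median was -0.004, and 90% of genes lay between -0.31 and 0.34. Of the 9 genes, 2 passed the test, Ccng1 and Btg2 (limma, Benjamini-Hochberg adjusted p under 0.05), where 0.0565% of all genes were called higher. At an unadjusted p under 0.05 there were 8 of the 9, against 8.42% of all genes. The genes were proposed with results of these arrays known, so these counts describe them and do not support their choice.

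**Figure D1:**
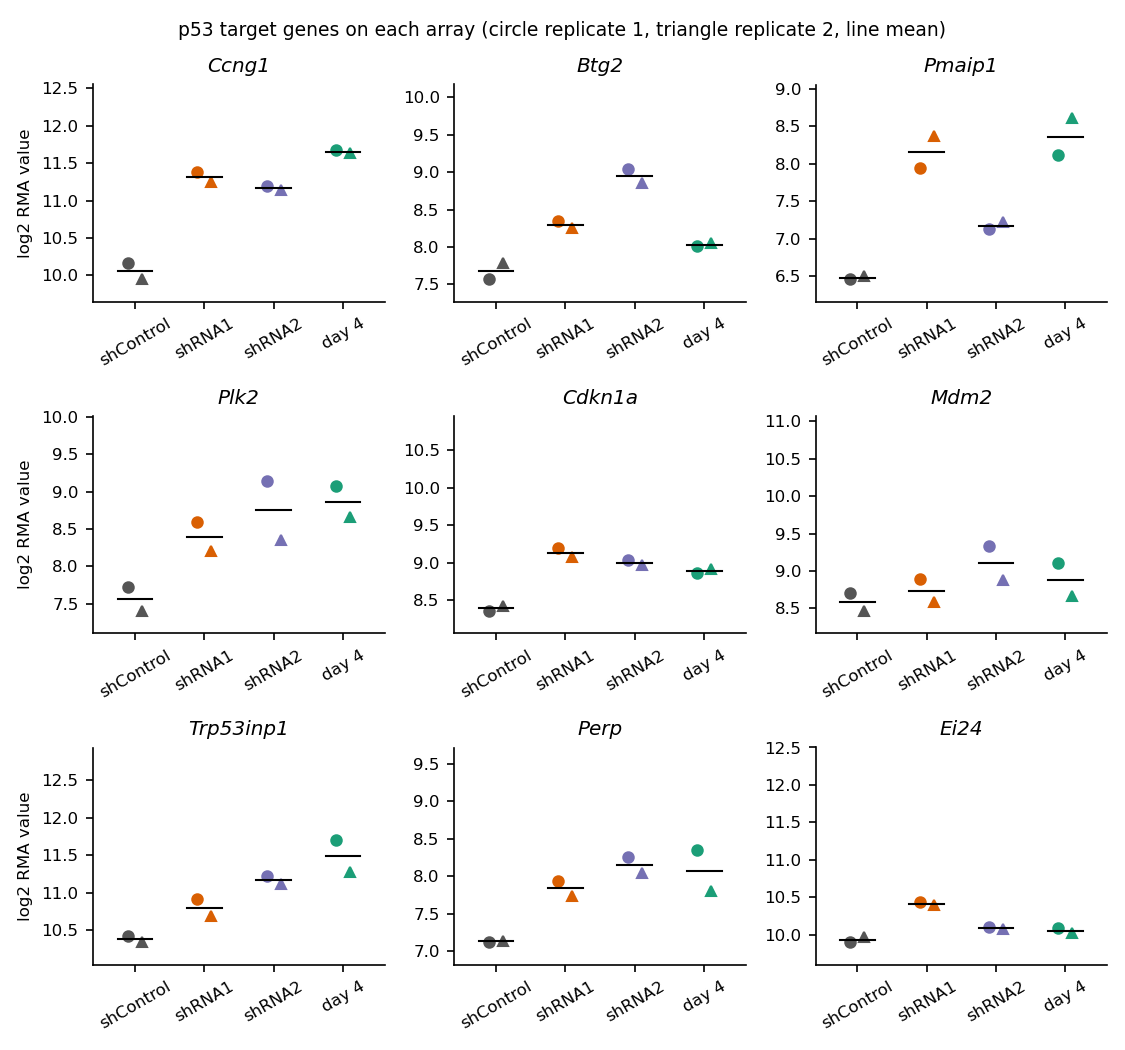
Each panel plots 1 gene's log2 RMA value on the 8 arrays by group, with circles for replicate 1, triangles for replicate 2 and a line at the mean of both; all panels span 2.9 log2 units. In 8 of the 9 panels every hairpin array and every day 4 array sits above both shControl arrays, Mdm2 being the exception.

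The values of single arrays are given next, again for genes proposed with results of these arrays known. The counts below thus describe them and do not support their choice. In 8 of the 9 genes, all except Mdm2, the 4 hairpin arrays all lay above both shControl arrays, an arrangement seen in 9.53% of all genes. The day 4 arrays lay above shControl in the same 8 genes, against 24.1% of all genes, and for 8 genes both conditions held together, against 4.99%. The comparisons with shControl all rest on the same pair of control arrays, so a low value in those arrays would raise every one of them.

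Ccng1 encodes cyclin G1, an atypical cyclin that recruits protein phosphatase 2A and acts on Mdm2. Its log2 value was 10.17 and 9.95 in shControl, 11.38 and 11.25 with shRNA1, 11.19 and 11.14 with shRNA2, and 11.67 and 11.63 on day 4. No array of 1 group overlapped that of another, and the order was shControl, shRNA2, shRNA1, day 4, with shRNA2 minus shRNA1 at -0.15 ± 0.14, which did not pass the test. Ccng1 rose by 1.18 ± 0.12 with both hairpins averaged (2.27-fold; SE, 4 against 2 arrays; adjusted p = 0.0122) and by 1.26 ± 0.14 with shRNA1 (2.39-fold, adjusted p = 0.0131). With shRNA2 the difference was 1.11 ± 0.14 and missed the threshold (adjusted p = 0.0878).

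Ccng1 had a pair of further probe sets, and both gave smaller differences in the same direction. One read 10.14 and 10.11 in shControl, 10.94 and 10.44 with shRNA1, 10.94 and 10.62 with shRNA2, and 11.19 and 11.03 on day 4. Its difference with both hairpins averaged was 0.61 ± 0.16, against 0.89 ± 0.14 for the remaining one, which read 8.61 and 8.59 in shControl and 9.34 to 9.68 with the hairpins. In the fit of every probe set, which called 0.0354% of them with both hairpins averaged, neither passed (adjusted p = 0.334 and 0.114), whereas the brightest did (adjusted p = 0.0157). Averaging its probe sets gave Ccng1 a difference of 0.89 that missed the threshold (adjusted p = 0.0563). The call also needed every undifferentiated array: without shControl replicate 1 or replicate 2 the adjusted p was 0.124 or 0.269, without either shRNA1 array 0.0935 or 0.062, and without either shRNA2 array 0.0761 or 0.097, while the difference stayed between 1.07 and 1.29.

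Btg2 encodes an antiproliferative protein of the BTG and TOB family, which couples to the CCR4-NOT deadenylase. It read 7.57 and 7.78 in shControl, 8.34 and 8.25 with shRNA1, 9.04 and 8.85 with shRNA2, and 8.01 and 8.05 on day 4. Here shRNA2 was highest, shRNA1 next, day 4 below them and shControl lowest, without overlap between groups. Btg2 rose by 0.95 ± 0.12 with both hairpins averaged (1.93-fold, adjusted p = 0.046), with 0.62 ± 0.14 for shRNA1 (adjusted p = 0.15) and 1.27 ± 0.14 for shRNA2 (adjusted p = 0.0878), neither of which passed alone.

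The other probe set of Btg2 gave the same order for the hairpins, with 6.95 and 6.86 in shControl, 7.34 and 7.36 with shRNA1, 8.18 and 7.93 with shRNA2 and 7.32 and 7.34 on day 4. Its differences were 0.45 ± 0.13 with shRNA1 and 1.14 ± 0.13 with shRNA2. When every probe set was tested neither passed with both hairpins averaged (adjusted p = 0.0662 for the brighter and 0.104 for the other). Like that of Ccng1, the call of Btg2 was lost without any 1 of the 6 undifferentiated arrays: the adjusted p was 0.21 and 0.289 without shControl replicate 1 and replicate 2, 0.206 and 0.185 without those of shRNA1, and 0.215 and 0.156 without those of shRNA2. The difference then ranged from 0.84 to 1.05.

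**Figure D2:**
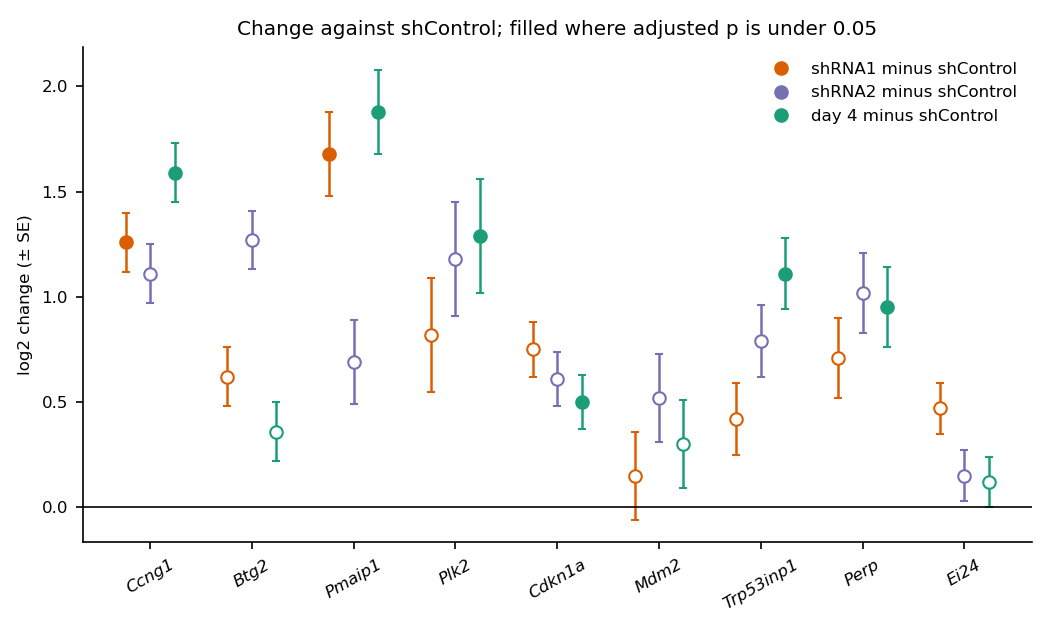
The log2 change of each gene against shControl is plotted with its moderated SE for shRNA1, shRNA2 and day 4 (2 against 2 arrays each); filled points have an adjusted p under 0.05. Filled points are Ccng1 and Pmaip1 for shRNA1 and 6 genes for day 4, and shRNA2 has none although its points for Btg2, Plk2 and Perp lie above those of shRNA1.

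Cdkn1a encodes p21, the inhibitor of cyclin-dependent kinases through which p53 arrests the cell cycle. It read 8.36 and 8.42 in shControl, 9.19 and 9.08 with shRNA1, 9.03 and 8.97 with shRNA2, and 8.86 and 8.91 on day 4. All 6 other arrays thus lay above shControl, and replicates differed by at most 0.11. The difference with both hairpins averaged was 0.68 ± 0.11 (1.6-fold), which did not pass (adjusted p = 0.0917), and that with shRNA1 was 0.75 ± 0.13 (adjusted p = 0.0596). Its other probe set read 7.79 and 8.15 in shControl, 8.62 and 8.60 with shRNA1 and 8.52 on both shRNA2 arrays, a difference of 0.59 ± 0.13. In a limma fit of the shControl, shRNA1 and shRNA2 arrays alone, Cdkn1a passed with both hairpins averaged (0.68, adjusted p = 0.0402), where 54 of all 12393 genes were called. Leaving out either day 4 array gives this same fit. With the shControl and shRNA1 arrays alone it also passed (0.75, adjusted p = 0.0477), where 113 of all genes were called.

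Plk2 encodes a polo-like kinase that acts in centriole duplication. Its values were 7.73 and 7.41 in shControl, 8.59 and 8.20 with shRNA1, 9.14 and 8.36 with shRNA2, and 9.07 and 8.66 on day 4. The hairpin and day 4 arrays overlapped among themselves and none reached down to shControl. Replicate 2 was the lower array in every group, by 0.32 to 0.78, and the gap of 0.78 with shRNA2 was the widest between replicates among the 9 genes. The difference with both hairpins averaged was 1.00 ± 0.23 and did not pass (adjusted p = 0.248).

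Of the genes of cell death, Pmaip1 had the largest differences with shRNA1, with both hairpins averaged and on day 4, but not with shRNA2, where Perp and Trp53inp1 had larger ones. It encodes Noxa, a BH3-only protein that binds Mcl1. Its values were 6.46 and 6.5 in shControl, 7.95 and 8.37 with shRNA1, 7.13 and 7.22 with shRNA2, and 8.12 and 8.61 on day 4. The shRNA2 arrays lay between shControl and all others, and the shRNA1 arrays overlapped those of day 4. Pmaip1 rose by 1.68 ± 0.20 with shRNA1 (3.2-fold, adjusted p = 0.0131), while 0.69 ± 0.20 with shRNA2 (adjusted p = 0.681) and 1.18 ± 0.17 with both averaged (adjusted p = 0.0707) did not pass. With shRNA1 alone, Ccng1 and Pmaip1 were the 2 of 9 genes called, where 0.169% of all genes were called higher.

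Both calls with shRNA1 were lost without any array of the groups compared. For Ccng1, dropping shControl replicate 1 or replicate 2 gave an adjusted p of 0.0918 or 0.139, and dropping either array of shRNA1 gave 0.146 or 0.112. For Pmaip1 it was 0.14, 0.207, 0.0968 and 0.159 in the same order, with differences of 1.47 to 1.89. When every probe set was tested, which called 0.177% of them with shRNA1, the brightest probe set of Ccng1 (adjusted p = 0.0152) and that of Pmaip1 (adjusted p = 0.0188) passed, 2 of the 15. At an unadjusted p under 0.05 there were 8 of the 9 genes, against 9.82% of all genes.

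Perp encodes a tetraspan membrane protein of desmosomes that p53 induces in apoptosis. It read 7.12 and 7.14 in shControl, 7.94 and 7.74 with shRNA1, 8.26 and 8.05 with shRNA2, and 8.35 and 7.80 on day 4. The shControl arrays differed by 0.02, far less than their distance to any other array, and the other groups overlapped in part. The difference with both hairpins averaged, 0.87 ± 0.16, did not pass (adjusted p = 0.144). It did in the limma fit of the shControl and hairpin arrays alone (adjusted p = 0.0253), where 54 of all 12393 genes were called.

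Trp53inp1 encodes a nuclear stress protein that acts with p53 and in autophagy. It read 10.42 and 10.34 in shControl, 10.91 and 10.69 with shRNA1, 11.22 and 11.11 with shRNA2, and 11.70 and 11.28 on day 4. The groups lay in that order without overlap, and the difference with both hairpins averaged, 0.60 ± 0.15, did not pass (adjusted p = 0.275). Its other probe set was dim, between 4.38 and 5.10 on all arrays and below the array medians, and showed 0.06 ± 0.14 with the hairpins, so the mean of both probe sets had 0.33.

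Ei24 encodes a membrane protein of the endoplasmic reticulum that acts in autophagy. It read 9.90 and 9.97 in shControl, 10.43 and 10.39 with shRNA1, 10.10 and 10.07 with shRNA2, and 10.09 and 10.02 on day 4. The shRNA1 arrays lay above all others, while those of shRNA2 and day 4 lay close together just above shControl. With shRNA1 the difference of 0.47 ± 0.12 against shControl did not pass (adjusted p = 0.239). With shRNA2 it was 0.15 ± 0.12.

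Mdm2, whose product marks p53 for degradation, was the 1 gene whose hairpin arrays overlapped the controls. It read 8.70 and 8.47 in shControl, 8.89 and 8.58 with shRNA1, 9.33 and 8.88 with shRNA2, and 9.10 and 8.67 on day 4. The shRNA2 arrays alone lay above both controls, with a difference of 0.52 ± 0.21 (adjusted p = 0.955). Replicate 2 was the lower array in each of the 4 groups, by 0.23 to 0.45, against differences of 0.15 with shRNA1 and 0.52 with shRNA2. The other probe set, at 8.04 and 7.94 in shControl and 8.74 and 8.35 with shRNA2, had 0.55 ± 0.20 with shRNA2 and 0.06 ± 0.20 with shRNA1.

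**Figure D3:**
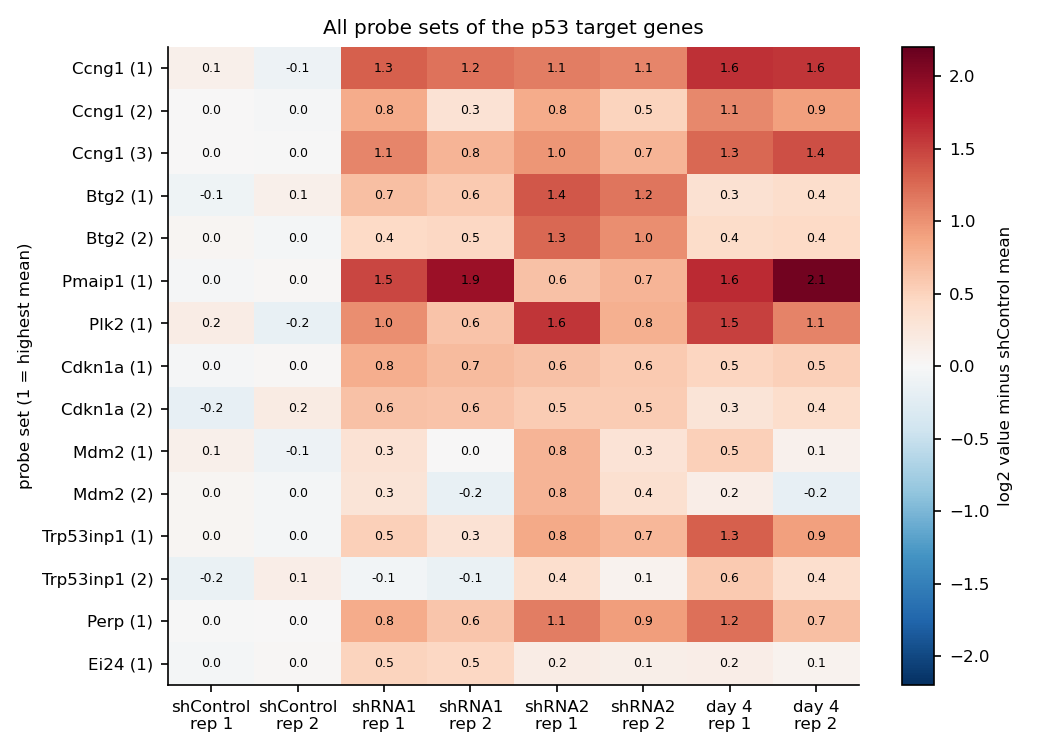
Rows are the 15 probe sets of the 9 genes, numbered by mean level within a gene, columns are the 8 arrays, and colour and number give the log2 value minus that probe set's shControl mean. The hairpin and day 4 columns are positive in most rows, and entries at or below 0 outside shControl occur only in rows of Mdm2 and the second probe set of Trp53inp1.

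With shRNA2 alone, limma called 0 of the 9 genes and 0% of all genes. At an unadjusted p under 0.05 there were 8 of the 9, all except Ei24, against 5.1% of all genes. Btg2, Ccng1 and Perp ranked 1, 3 and 22 by p among the 12393 genes. Within the fit, the day 4 arrays enter this comparison only through the shared estimate of spread. Whether RMA took them together with the other arrays is not known. In a limma fit of the shControl and shRNA2 arrays alone, 40 of all 12393 genes were called. Among them were Btg2 (1.27, adjusted p = 0.00503), Ccng1 (1.11, adjusted p = 0.00689), Perp (1.02, adjusted p = 0.013) and Plk2 (1.18, adjusted p = 0.0286).

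Which hairpin stood higher varied from gene to gene, and none of the 9 passed the test of their difference. All arrays of shRNA2 were above all of shRNA1 for Btg2, Trp53inp1 and Perp, 3 of 9 genes against 21.9% of all genes. The reverse held for Ccng1, Pmaip1, Cdkn1a and Ei24, 4 of 9 against 21.7%. The other probe sets of Ccng1 overlapped between the hairpins, with shRNA2 minus shRNA1 at 0.09 ± 0.19 and -0.06 ± 0.16. Pmaip1 was lower with shRNA2 than with shRNA1 by -0.99 ± 0.20 (adjusted p = 0.206), and Btg2 was higher by 0.65 ± 0.14 (adjusted p = 0.239). Of the 9 genes 0 were called, against 0.105% of all genes, and 3 had an unadjusted p under 0.05, against 5.15%. Leaving out either day 4 array gave 1 and the same fit, in which Pmaip1 passed this test. It did not pass in a fit of the shRNA1 and shRNA2 arrays alone. Btg2 and its second probe set, with 0.65 and 0.70, differed between the hairpins in the same way.

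On day 4 of differentiation 6 of the 9 genes rose against shControl, where 7.67% of all genes were called higher. Pmaip1 rose by 1.88 ± 0.20 (3.68-fold, adjusted p = 0.00029) and Ccng1 by 1.59 ± 0.14 (3.02-fold, adjusted p = 9.73e-05). Plk2 rose by 1.29 ± 0.27 (adjusted p = 0.0117), Trp53inp1 by 1.11 ± 0.17 (adjusted p = 0.00235), Perp by 0.95 ± 0.19 (adjusted p = 0.00956) and Cdkn1a by 0.50 ± 0.13 (adjusted p = 0.0266). The remaining genes had 0.36 ± 0.14 for Btg2 (adjusted p = 0.123), 0.30 ± 0.21 for Mdm2 and 0.12 ± 0.12 for Ei24. Other changes of cell state went with these. Of 9 epiblast and primitive streak markers, 5 rose on day 4, with a median change of 1.70 that was 0.50 on replicate 1 and 2.30 on replicate 2. Of the 20 stem cell markers 13 fell, where 8.73% of all genes were called lower. The part of these shifts in the results on day 4 was not tested. In bulk RNA, a change in the share of cells that express a gene and a change per cell cannot be told apart.

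The calls of Ccng1, Pmaip1 and Trp53inp1 on day 4 held without any 1 of the 8 arrays. That of Cdkn1a was lost without every array except day 4 replicate 1, the adjusted p being between 0.046 and 0.0637 over the 8 arrays, and when the fit held just shControl and day 4 (adjusted p = 0.15). That of Plk2 was lost without shControl replicate 2 (1.13, adjusted p = 0.117), and that of Perp without shControl replicate 1 (0.93, adjusted p = 0.0551) or replicate 2 (0.96, adjusted p = 0.0684). Without shControl replicate 2 the count was therefore 3. When every probe set was tested, 8 of the 15 passed, against 14.2% of all, including all 3 of Ccng1, whose differences were 1.59, 0.98 and 1.34. The second probe sets of Cdkn1a (0.33 ± 0.15) and Trp53inp1 (0.47 ± 0.16) did not.

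Day 4 was also set against the hairpins directly, which leaves the control arrays out of the difference. Of the 9 genes, 3 were higher on day 4, against 10.2% of all genes, and 1 was lower, against 11.2%. Higher were Pmaip1 by 0.70 ± 0.17 (adjusted p = 0.0179), Trp53inp1 by 0.51 ± 0.15 (adjusted p = 0.0383) and Ccng1 by 0.41 ± 0.12 (adjusted p = 0.0366). Btg2 was lower, with -0.59 ± 0.12 (adjusted p = 0.00832). Its call held without any 1 of the 8 arrays, where its adjusted p was at most 0.0381. The other genes had between -0.19 ± 0.11 for Ei24 and 0.29 ± 0.23 for Plk2, and Perp (0.08) and Mdm2 (-0.03) changed sign without single arrays.

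The 3 higher calls in that comparison were less steady. That of Ccng1 was lost without any array of the groups compared: leaving out shRNA1 replicate 1 or replicate 2 gave an adjusted p of 0.08 or 0.133, against 0.0895 and 0.112 without those of shRNA2, and 0.113 and 0.0711 without those of day 4. That of Trp53inp1 was lost without any array except day 4 replicate 2 (adjusted p 0.0594 without either shControl array, 0.0614 and 0.127 without those of shRNA1, 0.0768 and 0.112 without those of shRNA2, and 0.238 without day 4 replicate 1, where its difference was 0.29). That of Pmaip1 was lost without shRNA1 replicate 1 (adjusted p = 0.0583), shRNA2 replicate 1 (adjusted p = 0.0553) or day 4 replicate 2 (0.45, adjusted p = 0.0994).

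The profiles over the 8 arrays were compared after each gene was set to its shControl mean, by the root mean square difference in log2 units. Among the 9 genes, Trp53inp1 and Perp were closest (0.21), then Plk2 and Perp (0.26), and Pmaip1 and Mdm2 farthest apart (1.15). Among all genes except those with predicted or provisional names, the closest to Ccng1 were Dcxr (0.24), a carbonyl reductase gene, and the keratin gene Krt7 (0.26). Krt7 was dim in shControl, at 3.81 and 3.15, below the lower quartile of those arrays. Pm20d1 (0.24) and Cd109 (0.27) were closest to Btg2. The homeobox gene Otx2 (0.29) was closest to Pmaip1, with changes of 1.38, 0.56 and 2.32 with shRNA1, shRNA2 and on day 4. Ptpn14, a phosphatase gene, was among the closest pair for each of Plk2 (0.31), Trp53inp1 (0.18) and Perp (0.18), and Pqlc3 (0.13) was closest to Perp. These distances rest on 8 arrays and describe likeness only.

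Other p53 targets, from a pair of lists, had smaller median differences. The 9 genes and these lists were chosen with earlier results of these data known. The gap between them thus describes the lists only. Of 35 measured genes in both lists together, 26 lay above 0 with both hairpins averaged, with a median of 0.12. Of these 35, 0 were called, against 0.0726% of all genes. At an unadjusted p under 0.05 there were 7, or 20% of them, against 8.42% of all genes. The 4 hairpin arrays lay above shControl for 9 of these 35, against 9.53% of all genes. The largest differences among 22 genes of arrest and repair were those of Ccng2, a relative of Ccng1, with 0.94 ± 0.58, Ercc5, a nuclease of excision repair, with 0.62 ± 0.11 (adjusted p = 0.134), and the translesion polymerase gene Polk with 0.50 ± 0.16. Ccng2 read 5.83 and 6.99 in shControl against 6.70 and 8.34 with shRNA1, so its replicates differed by more than its groups. Among 13 genes of cell death, Apaf1, the core of the apoptosome, had 0.52 ± 0.15 (adjusted p = 0.398), Bid had -0.18 ± 0.15 and Fas 0.16 ± 0.14, and the median was 0.10. Fas was dim, between 2.49 and 3.29, below the lower quartile of every array.

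**Figure D4:**
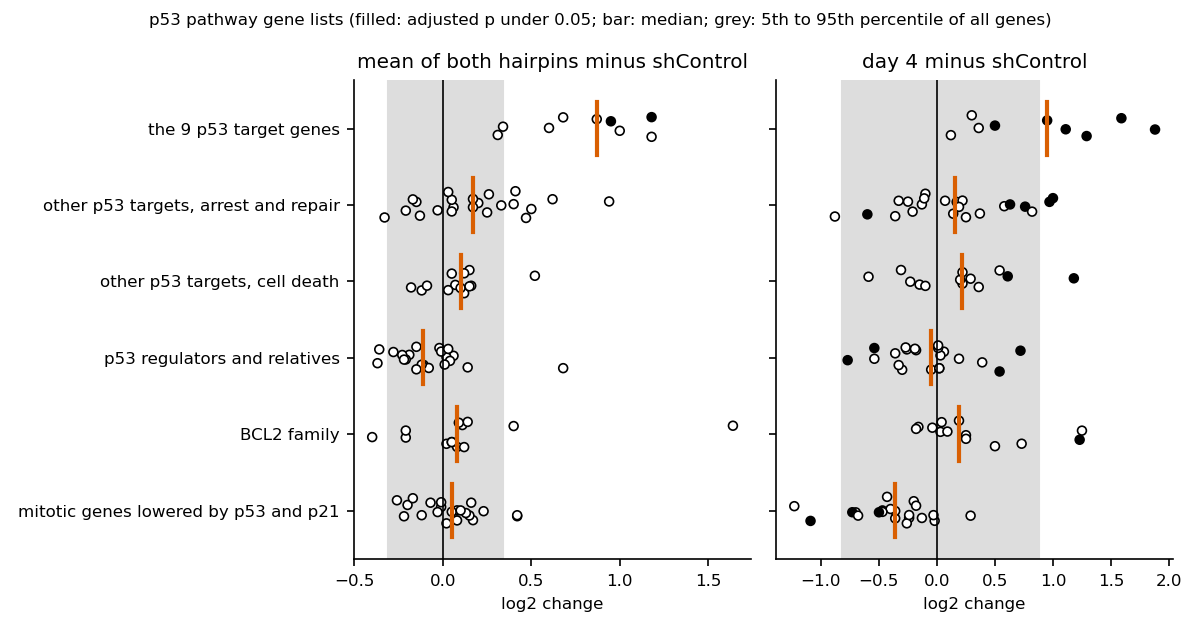
Each point is a gene's log2 change, on the left with both hairpins averaged and on the right on day 4, by gene list; filled points passed the test, the orange bar is the list's median and the grey band holds the central 90% of all genes. The 9 genes have medians of 0.87 and 0.95, whereas the medians of the other lists plotted lie between -0.11 and 0.17 on the left and between -0.36 and 0.22 on the right. Genes and lists were chosen with earlier results of these data known.

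On day 4, 6 of the other 35 targets rose and 1 fell, with a median of 0.19, where 7.67% of all genes were called higher and 8.73% lower. Apaf1 rose by 1.18 ± 0.17 (adjusted p = 0.00179), Phlda3 by 1.00 ± 0.16 (adjusted p = 0.00348) and Zmat3, an RNA-binding zinc finger gene, by 0.97 ± 0.13 (adjusted p = 0.00131). Ercc5 rose by 0.76 ± 0.13 (adjusted p = 0.0047), Lif by 0.63 ± 0.19 (adjusted p = 0.049) and Bbc3, which encodes the BH3-only protein Puma, by 0.61 ± 0.15 (adjusted p = 0.0256). Plk3 fell by 0.60 ± 0.16 on the log2 scale (adjusted p = 0.033).

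Regulators and relatives of p53, 21 measured genes, had a median of -0.11 with both hairpins averaged, 7 of them above 0. Of the 21, 0 were called, against 0.0726% of all genes. Mdm4, the partner of Mdm2 that masks the activation domain of p53, had 0.06 ± 0.18, and the relative Trp73 had 0.68 ± 0.17 (adjusted p = 0.31). Usp7, which removes ubiquitin from p53 and Mdm2, had -0.37 ± 0.13, and Daxx had -0.36 ± 0.14. On day 4, 2 of these 21 genes rose and 2 fell, where 7.67% of all genes were called higher and 8.73% lower. Trp73 (0.72 ± 0.20) and the ligase gene Cop1 (0.54 ± 0.14) rose. Cdkn2a, whose locus encodes Arf, an inhibitor of Mdm2, and the damage kinase gene Atm changed by -0.77 ± 0.22 and -0.54 ± 0.15 (adjusted p = 0.0322 to 0.0478 for these 4 genes). The level of p53's own gene was not analysed here.

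Relatives of the 9 genes by family had calls only in comparisons with day 4. Few genes of any kind were called with the hairpins: 0.0726% of all with both averaged, 0.242% with shRNA1 and 0% with shRNA2. Called higher on day 4 against shControl were 1 of 13 genes of the BCL2 family, 1 of 6 kinase inhibitors and 2 of 12 other relatives. Called lower were 0, 2 and 2 in the same order. Over all genes, 7.67% were called higher and 8.73% lower. Among 13 measured genes of the BCL2 family, 0 were called with the hairpins, and Bnip3 had 1.64 ± 0.64, Bok -0.40 ± 0.22 and Bcl2 0.40 ± 0.19. Bnip3 read 7.55 and 9.31 in shControl against 9.25 and 11.13 with shRNA1, so these groups overlapped. On day 4 Bcl2l11, which encodes Bim, rose by 1.23 ± 0.19. Of 6 inhibitors of cyclin-dependent kinases other than Cdkn1a, 0 were called with the hairpins, where Cdkn2b had 0.67 ± 0.12 (adjusted p = 0.12), Cdkn1b 0.53 ± 0.22 and Cdkn1c -0.39 ± 0.14. On day 4, Cdkn1c rose by 0.54 ± 0.16, while Cdkn2a and Cdkn2d fell, the latter by 0.57 ± 0.13. Of 12 relatives of Btg2, Plk2, Ccng1 and other members, 0 were called with the hairpins (Btg4 0.44 ± 0.13, Tob2 0.26 ± 0.18). Btg4 was dim, between 2.91 and 3.66, below the lower quartile of every array. On day 4, Tmem47, a relative of Perp, rose by 3.04 ± 0.27 and Plk4 by 0.59 ± 0.14, and Tob1 fell by 1.21 ± 0.24.

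Mitotic genes that p53 and p21 are known to lower had no call with the hairpins. Of 21 measured, 12 lay above 0 with both hairpins averaged, with a median of 0.05, and 0 were called, against 0.0726% of all genes. Cenpe had 0.42 ± 0.20, Mki67 0.42 ± 0.45 and Ccna2 -0.26 ± 0.15. On day 4 the median was -0.36 and 1 of 21 lay above 0. Of the 21, 4 fell, where 8.73% of all genes were called lower: Cenpe by 1.09 ± 0.23, Bub1b by 0.73 ± 0.19, Nek2 by 0.50 ± 0.13 and Ccnb2 by 0.47 ± 0.13. Nanog, which p53 is known to repress, read 11.69 and 11.54 in shControl and 11.55 to 11.70 with the hairpins, a difference of 0.01 ± 0.11, and fell by 1.70 ± 0.13 on day 4. Pou5f1 had 0.00 ± 0.12 and Sox2 0.29 ± 0.22 with the hairpins.

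Because Btg2, Plk2, Pmaip1 and Trp53inp1 also answer to other stress and growth signals, a pair of such lists was read beside them. With both hairpins averaged, 0.0726% of all genes were called. Of 16 genes of the integrated stress response, 0 were called with the hairpins, 9 lay above 0 and the median was 0.03, with Ddit4 at 1.77 ± 0.36 (adjusted p = 0.17), Mthfd2 at -0.43 ± 0.35 and Psat1 at -0.38 ± 0.22. Of 17 immediate early genes, 0 were called and the median was 0.12, with Ier3 at 0.99 ± 0.39, Myc at -0.58 ± 0.15 and Jun at 0.50 ± 0.23. On day 4, 1 of the 16 stress response genes rose, Cebpb by 1.71 ± 0.38, where 7.67% of all genes were called higher. The day 4 arrays went opposite ways for this list, with a median change of 1.02 on replicate 1 and -0.58 on replicate 2. Ddit3, for example, read 8.69 and 5.75 on day 4 against 6.30 and 6.36 in shControl. The median change of the 9 genes was 1.22 and 0.67 on the same arrays, and the part of the stress response genes in it was not tested. On day 4, 4 of the 17 immediate early genes rose and 4 fell, where 7.67% of all genes were called higher and 8.73% lower. Jun rose by 3.42 ± 0.27 and Ier5 by 2.34 ± 0.31. Dusp6 rose by 0.93 ± 0.14, while Egr1, Ier2 and Klf10 fell by 1.49 ± 0.33, 1.10 ± 0.17 and 0.98 ± 0.15. Of the marker lists, 2 genes were called with a hairpin, both with shRNA1, where 0.242% of all genes were called. Otx2 rose by 1.38 ± 0.18 (adjusted p = 0.0218) and Gbx2 fell by 1.17 ± 0.16 (adjusted p = 0.0276).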

How the data were processed

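Per the submitters' processing notes, the authors deposited RMA values on a log2 scale, 1 per probe set, for an Affymetrix Mouse 430A 2.0 array named in the design text; the version of RMA and which arrays it took together are not known from these sources. Values were used as deposited. Of 22690 probe sets, 64 were array controls, 20380 had 1 symbol in the platform annotation and 691 had several; 20351 were matched by gene identifier to RefSeq names (GRCm38.p6). For each of 12393 genes the probe set with the highest mean was fitted with limma 3.58.1 in R 4.3.3 (lmFit, eBayes), with 4 group means over 8 arrays, which left 4 residual degrees of freedom. Errors are moderated SE, and calls needed an adjusted p under 0.05 (Benjamini-Hochberg, over all genes). The fit was tested on simulated data. Named from the gene lists were genes called with a hairpin, up to 6 called on day 4 with the largest change, and the 3 with the largest change with both hairpins; likeness was given for genes whose group means spanned at least 1. The genes and lists were chosen with earlier results of these data known. Alternatives were every probe set, the mean of probe sets, a filter removing the 30% of genes with the lowest means, trend and robust options in eBayes, only the compared groups, repeated quantile normalization, median centring, a replicate block, and leaving out each array. The number of arrays limits the precision.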

Additional observations from a re-analysis of the deposited data

How the results depend on the processing

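With 1 value a gene, the directions of the 9 genes against shControl held under the alternatives run, except that of Mdm2 with shRNA1, which ranged from -0.0024 without shRNA1 replicate 1 to 0.31. Of the further probe sets, that of Trp53inp1 had -0.10 with shRNA1 and that of Mdm2 -0.01 on day 4. Between the hairpins Plk2 turned to -0.03 without shRNA2 replicate 1 and reached 0.74 without shRNA2 replicate 2. For day 4 against the hairpins, Mdm2 turned to 0.0031 with centred arrays, 0.04 without shRNA1 replicate 1, 0.08 without shRNA2 replicate 1 and 0.18 without day 4 replicate 2, against -0.25 without day 4 replicate 1. Perp turned to -0.19 without day 4 replicate 1, against 0.35 without day 4 replicate 2. The counts moved more. With both hairpins averaged, the 2 genes called became 1 when every probe set was tested and 1 with the mean of probe sets, 5 with only the compared groups (where 54 of all genes were called, not 9), and 4 with the replicate number as a block (22 of all genes), Pmaip1 (adjusted p = 0.0369) and Plk2 (adjusted p = 0.0421) being added. Trend and robust settings gave 3 (12 of all genes), adding Pmaip1 (adjusted p = 0.0435). With shRNA1, Cdkn1a was added to the 2 with only the compared groups (adjusted p = 0.0477) and with repeated quantile normalization (adjusted p = 0.0397). For shRNA2 the count of 0 became 2 with trend and robust settings (2 of all genes) and 4 with only the compared groups (40 of all genes). It became 1 with repeated quantile normalization (2 of all genes). Over all genes, only the compared groups gave 113 calls with shRNA1 against 30, 40 with shRNA2 against 0, and 1145 on day 4 against 2033. Leaving out 1 array gave counts of 0 to 5 for both hairpins, 0 to 3 for shRNA1, 0 to 3 for shRNA2, 0 to 1 between the hairpins, 3 to 6 for day 4 against shControl and 1 to 3 for day 4 against the hairpins. The 35 other p53 targets had 0 calls with both hairpins averaged under each of these. The cause of these shifts was not tested. The replicate numbers are not stated to pair the arrays; replicate differences correlated across genes by 0.226 to 0.504 among undifferentiated groups and by -0.0776 to 0.0698 with day 4. The block changed no call of the 9 genes in the other comparisons. Where an array is left out, the lone array of its group is assumed to vary like the other groups. The share of all genes called in those fits is not given here, so their counts stand without it. Centring put the median change of all genes at 0.022 with both hairpins averaged and 0.062 on day 4, from -0.004 and -0.001.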
